A study of Homo sapiens with 12 samples.

Results

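The comparison set clones D6 and E1 against clones E3 and E6, which are 4 of the 5 gefitinib-tolerant clones of a series on PC9, a human lung adenocarcinoma line driven by mutant EGFR. It used 8 of 12 Illumina expression bead arrays, 2 per clone, and 4 of 6 clones. Clones were grown from single sorted cells. Per the design text, part of the sorted cells received 0.4 or 2 µM gefitinib, an inhibitor of the EGFR kinase, for 14 days, and the rest received DMSO. The labels class D6, E1, E3, E6 and E2 as tolerant of gefitinib and B7 as a growing, sensitive clone. They do not state which gefitinib dose a tolerant clone had met, or whether drug was present when RNA was taken. All 6 clones share the PC9 background, and each stands for 1 sorted cell. No label says that a clone's 2 arrays came from separate cultures, so the spread between them may be technical.

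The clones of each side were chosen by measured values, namely the levels of hypoxia and mesenchymal genes, which were higher in D6 and E1. The difference between the sides is therefore given as a description, with its size and its spread over clones, and no test of it is read. Genes counted as higher or lower by sign only with the same sign in all 4 clone-to-clone differences (D6 or E1 minus E3 or E6). A gene counted as 2-fold apart when its mean difference also reached 1 on the log2 scale. Medians and levels of gene lists took in all measured members, also those with no common sign. Some genes with no common sign are described below and are named as such or by their overlap. Differences between the 2 clones of a side were tested with limma. They are not free of the choice, since the clones of a side were put together by their hypoxia and mesenchymal levels. Ranking genes by the smallest of the 4 differences also favours a small spread inside a side. Each standard error (SE) over clones is limma's moderated one, which draws a gene's own spread towards that of all genes. It can therefore understate or overstate the spread of a gene's own clone means. Levels are normalized log2 intensity. Because 1 probe stands for a gene, levels of different genes are not set against each other.

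Cells sense falling oxygen through prolyl hydroxylases, which mark the HIF alpha proteins for destruction when oxygen is present. When that step is blocked, HIF1A or EPAS1 pairs with ARNT, binds a short DNA core and raises genes for glucose uptake, glycolysis, vessel growth and matrix remodelling. The HIF proteins are controlled mainly by their stability, so the mRNA of HIF1A need not follow the activity. Metallothioneins, small proteins that bind zinc and copper, are raised by the metal-sensing factor MTF1. Mesenchymal genes encode the matrix, integrins and contractile filaments that epithelial tumour cells can gain as they change shape.

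The promoters of 5 genes are printed as examples of 2 lists described below. The first 3 are from the hypoxia genes, the largest list and by count the one with the most members on the higher side. The last 2 are from the metallothioneins, which held the gene with the greatest difference. Each sequence is the 250 bases upstream of the transcript start, 5′ to 3′ on the gene's own strand, from RefSeq (GRCh38.p14). Capitals in the first 3 mark the core of the hypoxia response element, ACGTG or GCGTG on either strand. Capitals in the last 2 mark the core of the metal response element, TGCACNC or TGCGCNC on either strand. ENO2 lies on the plus strand (chr12:6914330-6914579), LOX on the minus strand (chr5:122078260-122078509), BHLHE40 on the plus strand (chr3:4979187-4979436), MT1X on the plus strand (chr16:56682220-56682469) and MT2A on the plus strand (chr16:56608334-56608583).
ENO2: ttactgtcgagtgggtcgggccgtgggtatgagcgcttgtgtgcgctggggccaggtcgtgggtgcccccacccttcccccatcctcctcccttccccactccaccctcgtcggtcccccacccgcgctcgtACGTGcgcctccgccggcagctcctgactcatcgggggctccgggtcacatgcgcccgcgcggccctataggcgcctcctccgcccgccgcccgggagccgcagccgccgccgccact
LOX: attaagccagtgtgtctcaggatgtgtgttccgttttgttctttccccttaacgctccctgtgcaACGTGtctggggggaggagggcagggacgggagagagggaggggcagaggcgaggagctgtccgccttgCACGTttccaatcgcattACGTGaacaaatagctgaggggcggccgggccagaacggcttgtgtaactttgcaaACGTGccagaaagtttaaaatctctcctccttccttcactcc
BHLHE40: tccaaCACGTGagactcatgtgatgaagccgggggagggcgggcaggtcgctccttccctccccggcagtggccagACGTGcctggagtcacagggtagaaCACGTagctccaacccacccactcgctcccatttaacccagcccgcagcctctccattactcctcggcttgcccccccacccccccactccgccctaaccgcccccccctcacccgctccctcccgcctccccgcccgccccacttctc
MT1X: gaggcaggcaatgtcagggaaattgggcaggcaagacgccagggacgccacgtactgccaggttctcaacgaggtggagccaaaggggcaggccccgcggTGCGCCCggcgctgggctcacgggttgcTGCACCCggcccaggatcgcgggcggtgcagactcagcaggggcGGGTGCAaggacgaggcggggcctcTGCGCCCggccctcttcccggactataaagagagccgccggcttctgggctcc
MT2A: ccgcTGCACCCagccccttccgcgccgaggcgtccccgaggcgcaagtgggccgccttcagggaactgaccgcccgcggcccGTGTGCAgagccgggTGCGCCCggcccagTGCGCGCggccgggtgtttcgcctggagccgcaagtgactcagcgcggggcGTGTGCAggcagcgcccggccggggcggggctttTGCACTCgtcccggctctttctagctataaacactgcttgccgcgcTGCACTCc

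The ENO2 window held 1 core, and the LOX and BHLHE40 windows held 4 each. In BHLHE40, 2 of the 4 matches overlap in a palindrome that reads the same on both strands. The MT1X window held 4 metal response cores and the MT2A window held 7. A promoter was found for 9751 of the 12250 measured genes. The hypoxia core stood in 56.3% of these promoters, in 47 of 63 promoters of the hypoxia list (74.6%) and in 14 of 16 promoters of hypoxia genes at least 2-fold higher in D6 and E1 (87.5%). Among all 150 genes at least 2-fold higher in D6 and E1 that had a promoter, 75 held it. The metal core stood in 32.4% of all promoters, in 33.3% of those of genes at least 2-fold higher in D6 and E1, and in the promoters of all 3 metallothionein genes with one. A match is a stretch of letters and was not shown to be a bound site.

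Of 12250 measured genes, 189 (1.54%) were at least 2-fold higher in D6 and E1 than in E3 and E6, and 53 (0.433%) were at least 2-fold lower. Without the size rule, 2500 genes (20.4%) had one sign on the higher side and 2730 (22.3%) on the lower side. RNA came from bulk cells of each clone, so fewer cells carrying a transcript and less RNA per cell cannot be told apart. The median difference of the 189 higher genes was 1.33 on the log2 scale, and 31 of them were over 4-fold higher. The 53 lower genes had a median of 1.10 in size, and none was over 4-fold lower. The arrays of the sides did not overlap in 187 of the 189 higher genes and 50 of the 53 lower genes. The sign and size rules favour this, so a lack of overlap in a named gene below describes the selection. At the edge of the size rule, CDH3 (1.00) stood just inside and PNPLA7 (0.9995) just outside on the higher side. On the lower side, STAMBPL1 (-1.01) stood just inside and TEDC2 (-0.997) just outside.

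**Figure D1:**
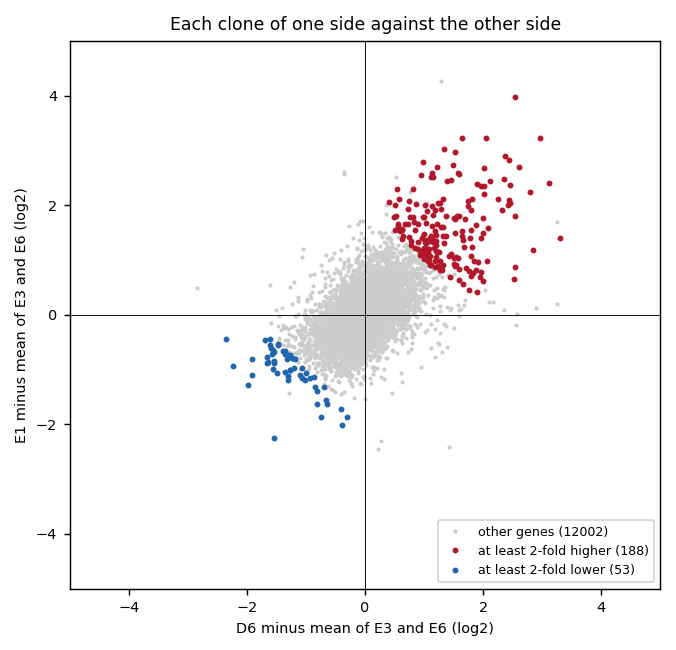
Each point is 1 gene, with the level in D6 minus the mean of E3 and E6 on the x axis and the level in E1 minus the same mean on the y axis, both in log2 units. The plot shows 12243 genes (7 are left out of all displays), with the 188 plotted higher genes in red at the upper right and the 53 lower genes in blue at the lower left.

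The balance between the directions depended on the processing. Higher genes made up 78.1% of the genes at least 2-fold apart, against 58.9% with median scaling, 60.6% without background correction, 63.1% with the authors' processed values, 77.9% with 75th percentile scaling and 84% with an offset of 50. Median scaling also moved the median difference of all 12250 genes to -0.12, against -0.01 with quantile normalization, so differences under it are read relative to that shift. No gene at least 2-fold apart under one of these alternatives, or with 1 array or clone left out, was 2-fold apart the other way in the main setting. Raw signal was lower on the D6 and E1 arrays than on the E3 and E6 arrays, apart from 1 E6 array that lay under E1. The upper quartile of raw intensity (its 75th percentile) stood at 80.2 and 80.1 on the D6 arrays and 94.0 and 95.0 on the E1 arrays. It stood at 103 and 104 on the E3 arrays and 103 and 92.7 on the E6 arrays. Its part in the differences was not tested. The scan held 47229 probes per array, and with few arrays and clones the precision is limited.

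The clones of a side were closer to each other than to the other side. The sides were chosen from levels on these arrays, which favours this, so it describes the grouping. The root mean square difference over genes was 0.39 log2 units between D6 and E1 and 0.39 between E3 and E6, and it was 0.44 to 0.49 for the 4 pairs across the sides. Clone E2 stood 0.65 from both D6 and E1 and 0.51 and 0.54 from E3 and E6. A clone's 2 arrays correlated at 0.995 to 0.997 across genes, which are not independent. Even so, the sides were not uniform. With limma on the arrays, 3938 genes (32.1%) differed between D6 and E1 and 3716 (30.3%) between E3 and E6, and 288 and 265 of these were at least 2-fold apart. Of the 288, 114 (0.931% of all genes) were higher and 174 (1.42%) lower in D6 than in E1. Of the 265, 98 (0.8%) were higher and 167 (1.36%) lower in E3 than in E6. As a description of the spread over clones only, limma on the 4 clone means put 6 genes (0.049%) past an adjusted p of 0.05, all higher in D6 and E1. Among the 189 higher genes, 121 (64.0%) differed between D6 and E1 and 104 (55.0%) between E3 and E6. Among the 53 lower genes the shares were greater, with 42 (79.2%) and 36 (67.9%) in the same order.

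The labelled cell type was checked against its markers. Of 11 lung adenocarcinoma epithelial markers, 10 were measured, and NKX2-1 was not detected on both arrays of any clone. CDH1, the epithelial cadherin, was bright on every array and differed by 0.21 ± 0.22 (SE over clones, n = 2 against 2) with no common sign. Of the markers of other cell types, 2 of 10 for fibroblasts, 2 of 8 for endothelium, 3 of 8 for neuroendocrine cells and 7 of 12 for leukocytes passed detection. PTPRC, CD3E, CD3D and CD53 of the leukocyte markers were not detected. Of the 7 measured leukocyte markers, CSF1R, CD68, LCP1 and CD14, best known from macrophages and other leukocytes, differed most. They were higher in D6 and E1 by 1.04, 0.95, 0.79 and 0.70 log2 units. By sign 5 of the 7 were higher, against 20.4% of all genes, 2 had no common sign, and the lowest difference was -0.06. Their median level was -0.12 and 0.29 on the D6 arrays and 0.50 and 0.41 on the E1 arrays. It was -0.15 and -0.21 on the E3 arrays and -0.20 and -0.30 on the E6 arrays.

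Hypoxia genes were the list with the most members on the higher side by count, and also the largest list. By share, other lists stood higher, such as integrins by sign (76.9% against 68%). Metallothioneins did so for genes at least 2-fold higher (50% against 28%). Of 84 listed genes 75 were measured, 21 were at least 2-fold higher in D6 and E1 and none was 2-fold lower. Of the same 75, 51 had one sign on the higher side and 1 on the lower side, and the median difference was 0.51, beside -0.01 over all genes. Among all genes, 20.4% had one sign on the higher side and 22.3% on the lower side. These values helped to choose the sides, so they describe the grouping. The list's level, as the median over its genes relative to the 4-clone mean, was 0.17 and 0.19 on the D6 arrays and 0.26 and 0.30 on the E1 arrays. It was -0.38 and -0.35 on the E3 arrays and -0.21 and -0.25 on the E6 arrays. The E2 arrays (-0.41 and -0.43) and the B7 arrays (-0.43 and -0.41) lay at or below E3.

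The oxygen sensors and HIF subunits showed little difference. Among 8 measured genes of this role, the median difference was 0.02. HIF1A, the inducible alpha subunit, had 8.52 and 8.55 in D6 and 8.28 and 8.36 in E1, against 8.73 and 8.51 in E3 and 8.50 and 8.63 in E6. The arrays of both sides overlapped, and the difference was -0.17 ± 0.17 (SE over clones, n = 2 against 2). EPAS1, the second alpha subunit, differed by 0.08 ± 0.31 and had no common sign. It was higher in D6 than in E1 by 0.48 (limma adjusted p = 0.00104) and higher in E3 than in E6 by 0.79 (limma adjusted p = 5.2e-05). EGLN3, a prolyl hydroxylase that is itself a HIF target, was the exception, with a difference of 1.18.

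Glucose uptake and glycolysis genes were higher in D6 and E1 over most of the pathway. Of 25 measured members, 21 had one sign on the higher side, none on the lower side, and 6 were at least 2-fold higher (median 0.41). The shares by sign over all genes were 20.4% higher and 22.3% lower. ENO2, a glycolytic enolase, had 8.51 and 8.64 in D6 and 8.81 and 8.86 in E1, against 5.50 and 5.68 in E3 and 5.47 and 5.79 in E6. Its probe was not well above background on any E3 or E6 array, so the level in D6 and E1 was at least 6.62-fold higher. All 4 D6 and E1 arrays lay far above the others, and D6 and E1 did not differ past the threshold (-0.26, limma adjusted p = 0.166).

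SLC2A3, a glucose transporter, had 14.24 and 14.14 in D6 and 14.60 and 14.56 in E1, against 11.74 and 11.71 in E3 and 12.76 and 12.69 in E6. The sides did not overlap, and the difference was 2.16 ± 0.35 (4.46-fold, SE over clones), although E3 lay 1.00 below E6 (limma adjusted p = 8.91e-06). HK2, which traps glucose as glucose 6-phosphate, was 3.76-fold higher, with 10.32 and 10.48 in D6 and 10.65 and 10.81 in E1, against 8.28 and 8.27 in E3 and 9.07 and 8.99 in E6. PFKFB4 and PFKFB3, which make the activator of phosphofructokinase, differed by 1.67 and 1.31. Housekeeping steps of glycolysis differed less: ALDOA and PGK1 by 0.41 each, ENO1 by 0.38, GAPDH by 0.32 and TPI1 by 0.30. PKM differed by -0.04 with no common sign. CA9 and SLC16A3 had no assigned probe and were not analysed here.

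**Figure D2:**
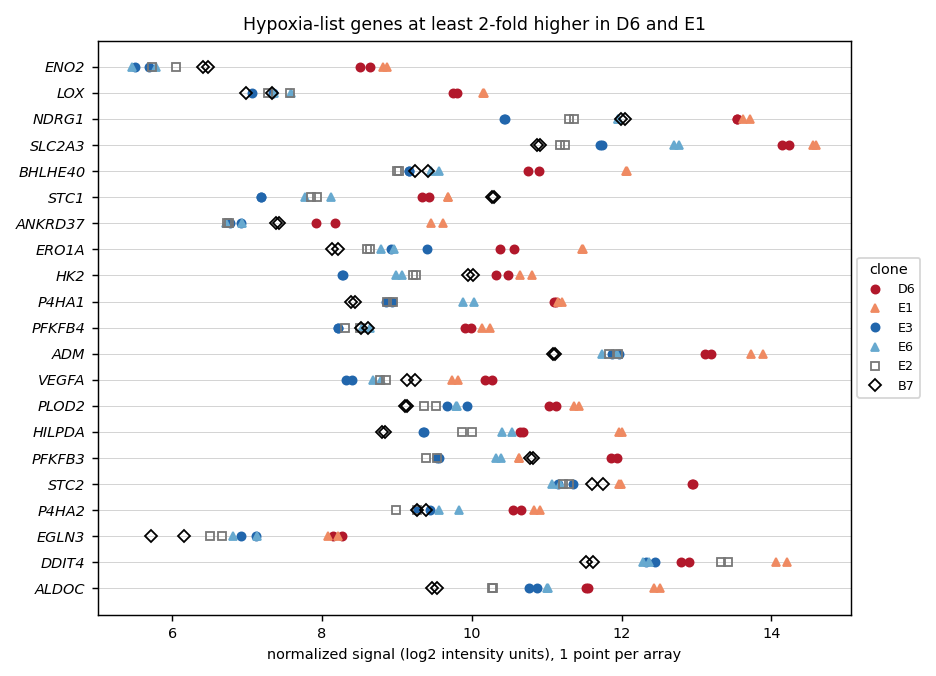
Each point is 1 array, with the normalized signal in log2 units on the x axis, for the 21 hypoxia genes at least 2-fold higher in D6 and E1, ordered from the greatest mean difference at the top. Filled symbols are the 4 clones compared and open symbols are E2 and B7. ENO2, at the top, lies above 8.5 on the D6 and E1 arrays and below 5.8 on the E3 and E6 arrays.

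Genes for vessel growth, secreted factors and collagen crosslinking had the greatest median of the hypoxia roles with at least 8 measured genes, 1.28 over 15 genes, of which 9 were at least 2-fold higher. LOX, which crosslinks collagen and elastin, had 9.81 and 9.74 in D6 and 10.16 and 10.15 in E1, against 7.34 and 7.07 in E3 and 7.59 and 7.36 in E6. That is 6.18-fold higher (2.63 ± 0.21), with the sides well apart and no difference past the threshold inside either. VEGFA, the main vessel growth factor, had 10.27 and 10.17 in D6 and 9.82 and 9.74 in E1, against 8.40 and 8.32 in E3 and 8.79 and 8.68 in E6 (2.73-fold). VEGFA was higher in D6 than in E1 by 0.44 (limma adjusted p = 0.0029), whereas ADM ran the other way. ADM, which encodes the vessel-dilating peptide adrenomedullin, was lower in D6 than in E1 by 0.65 (limma adjusted p = 0.000587) and differed between the sides by 1.60. P4HA1, a collagen prolyl hydroxylase, was higher in D6 and E1 by 1.72, but E6 lay 1.06 above E3 (limma adjusted p = 9.5e-06). STC1, a secreted glycoprotein, was 3.90-fold higher in D6 and E1 than in E3 and E6, yet its highest values were those of B7 (10.30 and 10.27).

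The stress and mitophagy members had a median of 0.58 over 24 genes, with 5 at least 2-fold higher. NDRG1, a stress-induced gene that marks hypoxic tumour cells, had 13.54 on both D6 arrays and 13.72 and 13.61 on the E1 arrays, against 10.44 and 10.42 in E3 and 11.96 and 11.95 in E6. E6 lay with B7 (12.04 and 11.99) and E3 lay lowest, 1.52 under E6 (limma adjusted p = 4.41e-07). BHLHE40, a transcriptional repressor of the clock and hypoxia response, had 10.90 and 10.75 in D6 and 12.08 and 12.06 in E1, against 9.15 and 9.16 in E3 and 9.56 and 9.45 in E6. BHLHE40, ANKRD37 and the oxidase ERO1A were lower in D6 than in E1 by 1.24, 1.49 and 1.01 (limma adjusted p = 6.52e-06, 9.6e-06 and 0.000455). BNIP3 and BNIP3L, mitophagy receptors, were higher in D6 and E1 than in E3 and E6 by 0.78 and 0.59. Inside the sides, 16 hypoxia genes were higher and 20 lower in D6 than in E1 by limma, out of 75, against 14.1% higher and 18% lower among all genes tested. In the other side 6 were higher and 27 lower in E3 than in E6, against 14.4% higher and 15.9% lower among all genes.

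The mesenchymal and matrix list separated the sides less evenly. Of 78 listed genes 54 were measured, 9 were at least 2-fold higher in D6 and E1, 1 was lower, and 23 against 3 had one sign (median 0.39). By sign, 20.4% of all genes were higher and 22.3% lower. The list's level was 0.15 and 0.11 on the D6 arrays and 0.25 and 0.24 on the E1 arrays, against -0.08 or above on both E3 arrays and -0.33 and -0.45 on the E6 arrays. E3 therefore lay nearer to D6 than to E6. Inside the side, 29 of the 54 genes were higher and 4 lower in E3 than in E6, against 14.4% higher and 15.9% lower among all genes tested. CDH2, ZEB1 and SNAI1 were not detected on both arrays of any clone. VIM, the mesenchymal filament vimentin, had 9.49 and 9.53 in D6 and 8.51 and 8.48 in E1, against 8.73 and 8.76 in E3 and 8.15 and 8.26 in E6. E1 lay under E3, so VIM had no common sign.

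The matrix genes that did separate the sides were mostly highest in D6. CCN2, a matricellular growth factor, had 9.93 and 9.80 in D6 and 8.03 and 7.89 in E1, against 6.29 and 6.62 in E3 and 6.65 and 6.70 in E6. The sides did not overlap (5.08-fold), and D6 lay 1.91 above E1 (limma adjusted p = 0.00025). A dimmer second probe of CCN2 gave a difference of 1.25. COL5A1, a fibrillar collagen chain, had 10.60 and 10.70 in D6 and 8.98 and 8.99 in E1, against 8.06 and 8.12 in E3 and 7.28 and 7.78 in E6. COL6A1 and COL6A2, chains of collagen VI, differed between the sides by 1.68 and 1.41, and each was higher in D6 than in E1 and in E3 than in E6. Dimmer probes of COL6A2 gave 0.05 and 1.22. FN1, which encodes fibronectin, had 8.47 and 8.40 in D6 and 7.82 and 7.59 in E1, against 6.73 and 6.78 in E3 and 6.41 and 6.64 in E6 (2.69-fold), and its other probes gave differences of 0.36 and 1.53.

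Other members followed E1 or set E6 apart. MMP7, a matrix metalloprotease of epithelial cells, had 10.39 on both E1 arrays, and D6 (9.31 and 9.06) lay just above E3 (9.05 and 9.04), with E6 lowest (7.88 and 7.84). CCN1, a matricellular relative of CCN2, had 11.18 and 11.07 in D6 and 11.00 and 10.75 in E1, against 10.40 and 10.52 in E3 and 8.11 and 8.31 in E6, so most of its mean difference came from E6. ACTG2, a smooth muscle actin, had the greatest mean difference of the list (2.78) but no common sign, because D6 (11.13 and 11.10) overlapped E3 (11.16 and 11.12), E1 was high (14.11 and 14.07) and E6 low (8.42 and 8.60). COL12A1, a fibril-associated collagen, was the 1 member at least 2-fold lower, with 8.84 and 8.56 in D6 and 7.87 and 7.74 in E1, against 9.18 and 9.12 in E3 and 9.45 and 9.70 in E6. A dimmer second probe of COL12A1 gave a difference of 0.48, in the other direction.

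Integrins, the receptors that hold cells to that matrix, were higher in D6 and E1 in 10 of 13 measured members and lower in 1, by sign (median 0.38). Among all genes the shares were 20.4% higher and 22.3% lower. ITGA5, the fibronectin receptor chain, had 9.67 and 9.71 in D6 and 10.18 and 10.14 in E1, against 8.68 and 8.87 in E3 and 8.24 and 8.42 in E6. It was the 1 integrin at least 2-fold higher (2.59-fold). ITGA2, ITGB3 and ITGB4 differed by 0.93, 0.79 and 0.72, and ITGAE, which binds E-cadherin, by -0.45.

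**Figure D3:**
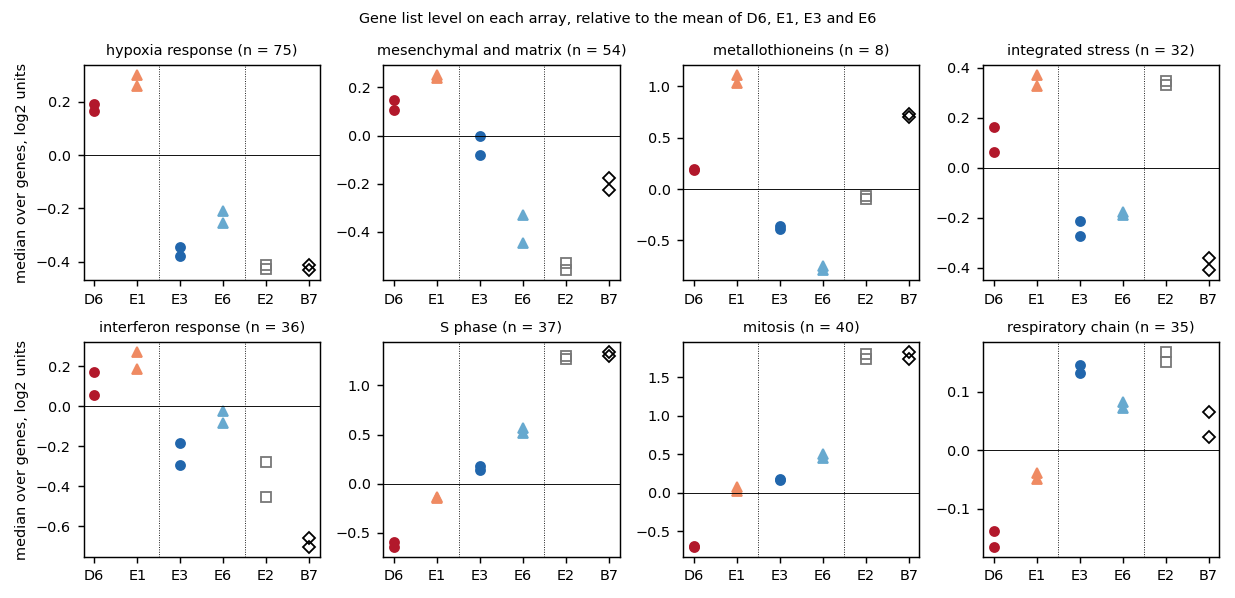
Each panel shows 1 gene list, with the 12 arrays by clone on the x axis and the median over the list's measured genes, relative to the mean of D6, E1, E3 and E6, in log2 units on the y axis. Dotted lines part D6 and E1, E3 and E6, and the clones not compared. Hypoxia and metallothionein levels were above 0 on every D6 and E1 array and below 0 on every E3 and E6 array, and S phase levels ran the other way.

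The metallothioneins, whose promoters are printed above, included the gene with the greatest difference of all. Of 8 measured genes in the list 4 were at least 2-fold higher and none 2-fold lower (median 1.16). By sign 5 were higher and 1 lower, against 20.4% and 22.3% of all genes. MT1X had 12.65 and 12.56 in D6 and 14.06 and 14.04 in E1, against 10.03 and 10.08 in E3 and 10.14 and 10.04 in E6. The sides lay far apart (3.25 ± 0.44, 9.55-fold), D6 lay 1.45 under E1 (limma adjusted p = 1.83e-06), and B7 (12.24 and 12.22) lay near D6. MT2A had 11.58 and 11.64 in D6 and 12.29 and 12.26 in E1, against 10.17 and 9.91 in E3 and 9.18 and 9.12 in E6, and B7 exceeded all of them (14.53 and 14.50).

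MT1F was 4.75-fold higher in D6 and E1, and MT1H, not well above background on any E3 or E6 array, was at least 2.20-fold higher. MT1E, by contrast, differed by 0.06 with no common sign. MTF1, the metal-sensing factor, had no difference to the second decimal and no common sign, and the zinc exporter SLC30A1, also under metal control, differed by -0.42. Metallothionein transcripts are near-identical, so the probes may share signal and the split among members is uncertain. In RefSeq gene order, MT2A, MT1F, MT1H and MT1X stood within 10 neighbouring measured genes of chromosome 16.

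Cell cycle genes were the main group on the lower side. Of 37 measured S phase genes, 10 were at least 2-fold lower in D6 and E1 and none higher, and by sign 27 were lower and 2 higher (median -0.73). Of 40 mitosis genes, 5 were at least 2-fold lower and none higher, and 26 were lower and 0 higher by sign (median -0.64). Among all genes, 22.3% were lower and 20.4% higher by sign. PCNA, the sliding clamp of DNA replication, had 9.72 and 9.64 in D6 and 10.10 and 10.12 in E1, against 11.05 and 10.89 in E3 and 11.42 and 11.33 in E6 (2.42-fold lower). A dimmer second probe of PCNA gave -0.35, and the mean over the gene's probes was -0.81, short of 2-fold. CDC45, part of the replicative helicase, had 7.25 and 7.52 in D6 and 8.47 and 8.49 in E1, against 8.84 and 9.05 in E3 and 9.64 and 9.65 in E6. No arrays of the sides overlapped in either gene (by the brighter probe of PCNA), and in both the levels stood in the order D6, E1, E3, E6.

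MCM10 and GINS2, also needed to start replication, differed by -1.28 and -1.25, and the helicase subunit MCM2 by -0.94. CDC25A, the phosphatase that opens the way into S phase, had 6.09 and 6.11 in D6 and 6.03 and 6.71 in E1, against 7.56 and 7.27 in E3 and 7.48 and 7.22 in E6, and it led the lower side by its nearest clone difference (-0.98). A dimmer second probe of CDC25A gave -0.32. FOXM1, which drives mitotic genes, had 6.66 and 6.64 in D6 and 7.01 and 7.33 in E1, against 7.95 and 7.96 in E3 and 8.05 and 7.92 in E6. CDK1, the mitotic kinase, differed by -1.03, but D6 lay 1.17 under E1 (limma adjusted p = 1.25e-05) and E1 lay close to E3. MKI67, the proliferation marker, was not well above background on any D6 or E1 array and was at least 1.24-fold lower there. E2F1 ran against its list, with a difference of 0.39, and CDKN1A, the kinase inhibitor p21, was 2.19-fold higher in D6 and E1.

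Mitosis genes did not split the clones into these sides alone. Their list level was -0.71 and -0.69 on the D6 arrays and 0.08 and 0.02 on the E1 arrays, against 0.17 and 0.18 on the E3 arrays and 0.45 and 0.50 on the E6 arrays, with E2 and B7 at 1.73 to 1.82. With limma, 35 of the 40 mitosis genes were lower in D6 than in E1, against 18% of all genes tested, and none was higher. In the other side, 17 of the 40 were lower in E3 than in E6, against 15.9% of all genes. The gap between E1 and E3 was thus smaller than the gap between D6 and E1. The S phase list ran D6 (-0.59 and -0.65), E1 (-0.14 on both), E3 (0.14 and 0.18) and E6 (0.57 and 0.52), again under E2 and B7 (1.27 to 1.34).

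**Figure D4:**
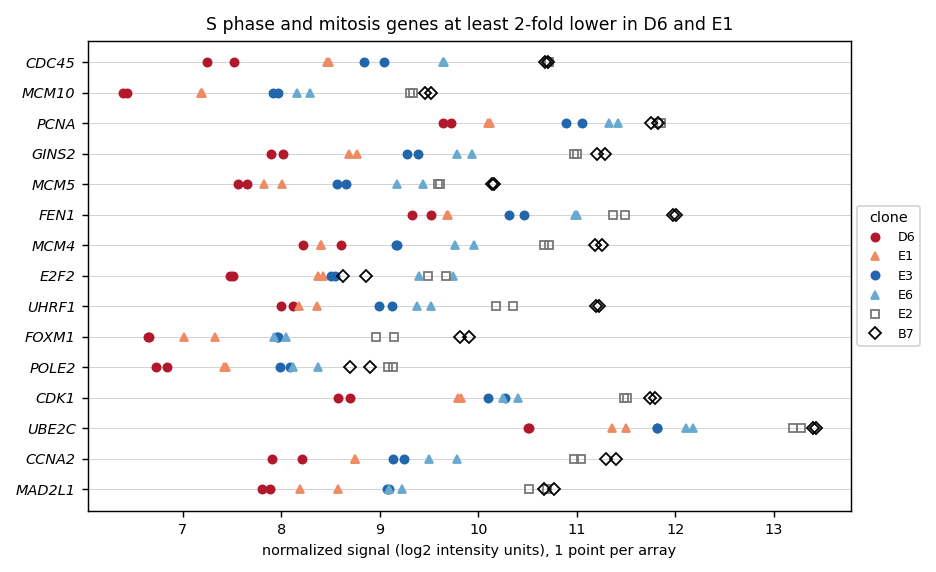
Each point is 1 array, with the normalized signal in log2 units on the x axis, for the 15 S phase and mitosis genes at least 2-fold lower in D6 and E1, ordered from the most negative mean difference at the top. D6 lies lowest in each row except MCM4, and for CDC45 the arrays run from 7.25 in D6 to 9.65 in E6, with E2 and B7 (10.68 to 10.72) above them.

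EGFR, the target of gefitinib, was among the higher genes. It had 10.16 and 10.12 in D6 and 11.15 and 11.22 in E1, against 8.76 and 9.0 in E3 and 8.61 and 8.64 in E6. Clone B7 had 10.40 and 10.45. The difference was 1.91 ± 0.35 (3.77-fold), and E1 lay 1.04 above D6 (limma adjusted p = 2.17e-05). Dimmer probes of EGFR gave differences of 0.84 and 0.24, and the mean over the gene's probes was 0.998, just short of 2-fold, so its 2-fold call rests on the brightest probe. ERRFI1, whose protein binds and inhibits the EGFR kinase, had 11.52 and 11.57 in D6 and 12.07 and 12.01 in E1, against 9.60 and 9.61 in E3 and 9.71 and 9.67 in E6. Both genes separated the sides on every array, as did 187 of the 189 higher genes. The other 10 measured genes of the EGFR family list had no member 2-fold apart. SPRY1 and SPRED2, feedback inhibitors of ERK signalling, were 2.53-fold and 2.18-fold higher, whereas DUSP6, a phosphatase raised by ERK, differed by 0.02 with no common sign. A dimmer second probe of SPRY1 gave a difference of 0.92, short of 2-fold. Clone B7 lay above both sides in SPRY1 (9.77 and 9.71) and SPRED2 (8.64 and 8.58). Of 30 measured genes of the ERK output list, 12 were higher and 2 lower by sign (median 0.27), against 20.4% and 22.3% of all genes.

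Of the receptors that can bypass EGFR, MET had 8.58 and 8.57 in D6 and 8.64 and 8.47 in E1, against 8.62 on both E3 arrays and 8.53 and 8.59 in E6. These arrays overlapped (-0.03 ± 0.16). AXL had 10.11 and 9.88 in D6 and 9.96 and 9.95 in E1, against 9.84 and 9.81 in E3 and 8.68 and 9.04 in E6, so that only E6 stood apart. None of the 22 measured genes of the bypass receptor list was 2-fold apart.

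Genes of the integrated stress response, by which cells slow translation and raise amino acid supply, were higher in D6 and E1 than in E3 and E6. Of 32 measured genes 5 were at least 2-fold higher and none lower, and 19 against 2 had one sign (median 0.46). By sign, 20.4% of all genes were higher and 22.3% were lower. The list's level on the E2 arrays (0.35 and 0.33) was near that on the E1 arrays (0.37 and 0.33). Both lay above the D6 arrays (0.17 and 0.06), and the E3 and E6 arrays lay at -0.18 or below. By limma, 8 of the 32 were higher and 14 lower in D6 than in E1, against 14.1% and 18% of all genes. DDIT3, a transcription factor of prolonged stress, had 9.97 and 9.95 in D6 and 10.62 and 10.63 in E1, against 8.73 and 8.85 in E3 and 8.87 and 8.77 in E6 (2.80-fold). ATF3 had 9.72 and 9.98 in D6 and 10.10 and 10.04 in E1, against 8.22 and 8.06 in E3 and 8.47 and 8.59 in E6. TRIB3, a pseudokinase target of ATF4, differed by 1.45, and its levels in E2 (11.74 and 11.62) lay at those of E1. ATF4, controlled mainly at translation, differed by 0.23, while ATF5 differed by -0.96. ASNS and MTHFD2, enzymes of asparagine and one-carbon supply, differed by 0.87 and 0.79.

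Interferon response genes gave 5 members at least 2-fold higher of 36 measured and none lower, and 16 against 1 by sign (median 0.29). All genes gave 20.4% higher and 22.3% lower by sign. IFI6, an interferon-induced membrane protein, had 10.91 and 10.95 in D6 and 11.12 and 10.98 in E1, against 8.32 and 8.40 in E3 and 9.96 and 9.86 in E6. E6 lay between E3 and the other side, 1.54 above E3 (limma adjusted p = 1.4e-05). A dimmer second probe of IFI6 gave a difference of 0.64. BST2 and IFITM1, which restrict viruses, differed by 1.75 and 1.50, and both were higher in E1 than in D6. The classic induced genes IFIT1, IFIT2, IFIT3 and MX1 had no common sign and differed by 0.08, -0.22, -0.08 and 0.04. Of 19 measured MHC class I genes, 8 were higher and 1 lower by sign and none was 2-fold apart.

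**Figure D5:**
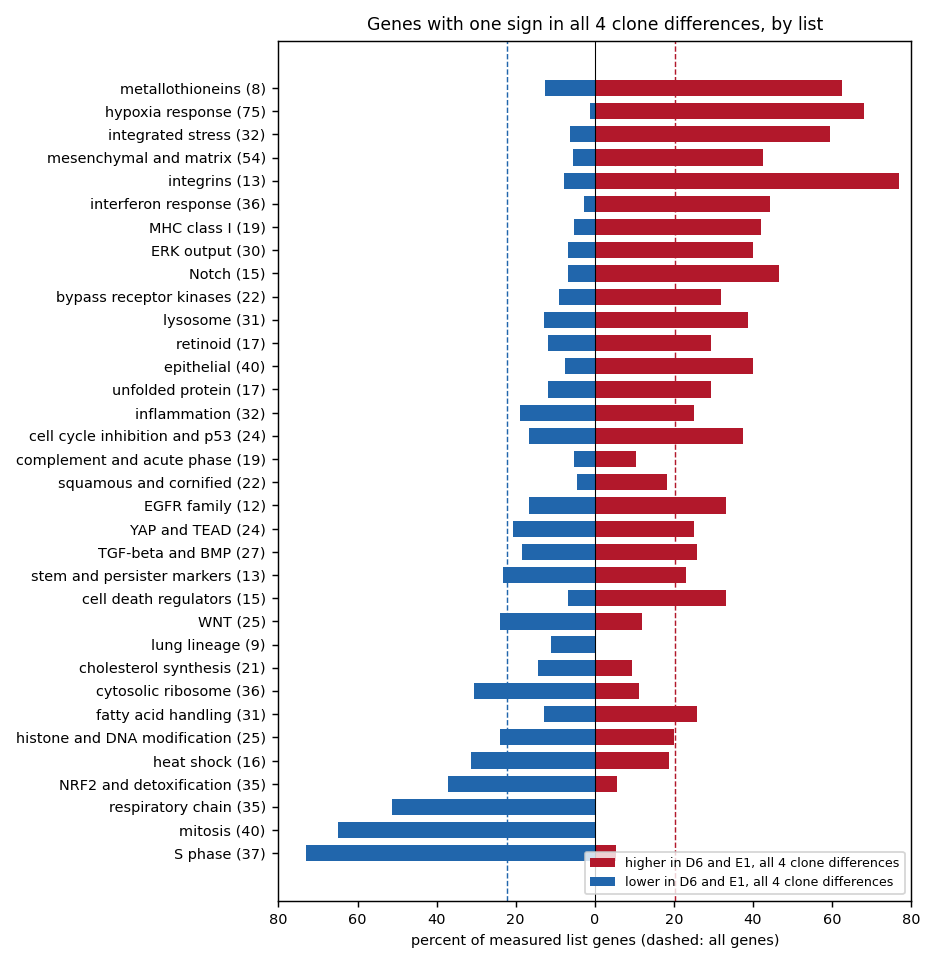
Bars give, for each gene list with at least 8 measured genes, the percent of measured genes that were higher (red, right) or lower (blue, left) in D6 and E1 in all 4 clone differences, with the number measured in brackets. Dashed lines mark all genes (20.4% higher and 22.3% lower), and lists are ordered by median difference, from the metallothioneins at the top to S phase at the bottom.

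Genes of the respiratory chain and of NRF2-driven detoxification tended to the lower side by sign, with small differences. Of 35 measured respiratory chain genes, 18 were lower and none higher by sign, and none was 2-fold apart (median -0.19, with the lowest, NDUFB9, at -0.62). Of 35 NRF2 and detoxification genes, 13 were lower and 2 higher by sign (median -0.17). Beside both lists, 22.3% of all genes were lower and 20.4% higher by sign. GPX2, a glutathione peroxidase, had 10.82 on both D6 arrays and 11.60 and 11.43 in E1, against 12.20 and 12.07 in E3 and 13.50 and 13.46 in E6 (3.11-fold lower). GCLC, which starts glutathione synthesis, differed by -0.86, and NQO1 by -0.38. GSTA4, a glutathione transferase, was the exception and was 2.70-fold higher.

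The lists hold 69 of the 189 higher genes. By the nearest clone difference, SEMA5B, an axon guidance protein, stood next after ENO2 and MT1X, with 8.50 and 8.48 in D6 and 8.51 and 8.62 in E1, against 5.70 and 5.84 in E3 and 6.11 and 5.86 in E6. SEMA5B belongs to no list. PRSS8, the epithelial surface protease prostasin, from the epithelial list, had 11.16 and 11.17 in D6 and 11.62 and 11.75 in E1, against 8.86 and 9.16 in E3 and 8.34 and 8.82 in E6 (6.19-fold). In both genes the sides did not overlap, and D6 lay 0.52 under E1 in PRSS8 (limma adjusted p = 0.0306). Also outside the lists, CCL22, a chemokine for T cells, and PNCK, a calcium-dependent kinase, were not well above background on any E3 or E6 array and were at least 3.13-fold and 3.59-fold higher. SLC29A4, a monoamine transporter, and PAG1, a membrane adaptor for CSK, differed by 2.11 and 2.41, and dimmer probes of PAG1 gave 1.37 and 1.36. KRT15 and KRT13, keratins of stratified epithelium from the squamous and cornified list, differed by 2.11 and 2.76. KRT13 was 2.24 lower in E3 than in E6 (limma adjusted p = 5.34e-07). Their list did not part the sides as a whole (median 0.06, lowest -1.12). Of its 22 measured genes 4 were higher (18.2%) and 1 lower (4.55%) by sign, against 20.4% and 22.3% of all genes. The other 17 had no common sign.

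Of the 53 lower genes, 21 belonged to a list. TRIM29, a protein of squamous and basal epithelia, had 7.61 and 7.50 in D6 and 8.85 and 8.83 in E1, against 9.63 and 9.79 in E3 and 9.82 and 9.89 in E6, a difference of -1.59. A dimmer second probe of TRIM29 gave -0.88. WNT10A, a WNT ligand, and DKK1, a secreted WNT inhibitor, were lower by 1.30 and 1.13, and WNT7A, another ligand, was 2.48-fold higher. LFNG, which modifies Notch receptors, was lower by 1.20, nearly all of it through E1 (6.69 and 6.87), since D6 (8.36 and 8.46) lay close to E3 (8.86 and 8.84) and E6 (8.71 and 8.76). A second probe of LFNG, near background, gave -0.01.

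The clones outside the comparison lay more often at or past the E3 and E6 side than at or past the D6 and E1 side. A clone counted as at or past a side once it reached that side's nearer clone. Values between the 2 clones of a side are thus included, and the same counts over all genes were not made. For the 189 higher genes, E2 lay at or past the D6 and E1 side in 30, between the sides in 44 and at or past the E3 and E6 side in 115. Clone B7 gave 36, 44 and 109 in the same order. For the 53 lower genes, E2 lay at or past D6 and E1 in 14 and at or past E3 and E6 in 37, and B7 in 16 and 34. Of the genes at least 2-fold apart, 73 had 96 further detected probes, of which 91 gave the same sign, with a median of 0.695 of the main probe's difference.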

How the data were processed

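The deposited non-normalized file holds scanner intensity on a linear scale, with background already subtracted by the authors; the method is not given in the sources used here. The authors' deposited processed values are linear intensity, with values under 20 set to 20, and served as an alternative. The scanner intensity was corrected by normexp with an offset of 16, quantile normalized over 12 arrays and log2 transformed (limma 3.58.1, R 4.3.3). A probe was detected above 2.33 times the noise of its array (the root mean square of negative values) and kept when both arrays of 1 clone detected it, which left 21912 of 47229 probes. The brightest kept probe stood for each of 12250 genes. The annotation table gave 1 gene for 30112 probes, several for 8 and none for 17109.

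Side differences used clone means, with moderated standard errors from limma over 4 means. For EGFR the SE was 0.35, with standard deviations between clones of 0.74 (D6 and E1) and 0.18 (E3 and E6). For MET it was 0.16, with 0.02 and 0.04. D6 minus E1 and E3 minus E6 were tested with limma on 12 arrays (6 residual degrees of freedom), 2-sided, with Benjamini-Hochberg adjustment over all genes and a threshold of 0.05. Only the spread between the 2 arrays of a clone enters these p-values. A probe under the limit on all arrays of a side gave a lower bound, against the higher of its own value and the lowest detected value on each array. Steps were tested on simulated data.

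The members and gene lists were chosen with earlier results of these data known. Named genes were the 15 highest and 15 lowest by the nearest clone difference, up to 12 of the hypoxia and mesenchymal lists and 4 of each other list among those 2-fold apart, and a fixed set of receptors and markers. Further list members and ACTG2 were named after their values were seen. Alternatives changed the background correction, scaling, filter, probe rule, size rule, arrays and clones.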

Additional observations from a re-analysis of the deposited data

Results flagged for a closer look

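Among 198 sets of 4 arrays (2 clones of a side, 99 named genes), 4 had 1 array far from the other 3. The limit used would flag about 1 in 20 sets of 4 values drawn alike. Each set here holds 2 arrays from each of 2 clones that can differ, so that rate does not apply. CDC25A had 6.71 on the second E1 array, against 6.11 for the next of the D6 and E1 arrays. SKA3 had 5.72 on the second D6 array, against 5.98 for the next. CHAF1A had 6.37 on the first E6 array, against 6.27 for the next of the E3 and E6 arrays. SPRY1 had 7.21 on the second E6 array, against 7.10 for the next.

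For 13 of the 99 named genes and 1 list, all arrays of D6 and E1 lay on one side of clone B7 and all arrays of E3 and E6 on the other. Both differences share the B7 arrays, and the difference between them was not tested. Most named genes were chosen for a gap between the sides, which favours this, and the share over all genes was not counted. By clone means, B7 lay between the sides in 44 of the 189 higher genes and 3 of the 53 lower genes. In log2 units from B7, the hypoxia genes gave 1.58 in D6 and E1 and -0.83 in E3 and E6 for NDRG1, 1.39 and -0.57 for ANKRD37, 0.58 and -1.33 for HK2, and 0.81 and -0.64 for VEGFA. In the same order, the metallothioneins gave 1.10 and -2.15 for MT1X and 1.26 and -0.99 for MT1F. ENO2 and MT1H lay 2.26 and 1.12 above B7 in D6 and E1. Neither was well above background on any E3 or E6 array, and with those arrays raised to their lowest detected signal the difference from B7 was -0.47 for ENO2 and -0.02 for MT1H, both bounds. ERRFI1 gave 0.69 and -1.45, ITGA5 0.75 and -0.62, and CNN3 0.78 and -0.32. ISG20 gave 0.76 and -0.52, and TRIB3 0.70 and -0.75. The median of the respiratory chain list lay at -0.11 in D6 and E1 and at 0.07 in E3 and E6.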

How the results depend on the processing

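The 189 higher and 53 lower genes became 334 and 217 without background correction and 340 and 199 with the authors' values. With an offset of 50 the lower genes numbered 26, and with median scaling 95. Leaving out a clone gave 313 higher and 95 lower genes without D6, and 138 and 154 lower genes without E1 and without E3. Requiring all 4 clone differences to reach 2-fold left 67 higher and 0 lower genes. Leaving out 1 array gave 191 to 198 higher and 49 to 61 lower genes. The limma count on clone means, from which nothing is read, was 6, all higher, with 1312 genes at an unadjusted p under 0.05. It was 0 without background correction, with an offset of 50, with the authors' values and without E3, and 2 with median scaling, 10 with no filter, 92 without D6, 56 without E1, 11 without E6, and 6 to 8 without 1 array.

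With a minimum of 2-fold, D6 minus E1 kept 288 of 3938 calls and E3 minus E6 265 of 3716. Without 1 array the calls numbered 2684 to 3972 and 2552 to 3700. Calls higher in D6 than in E1 made up 43.9%, and 20.4% with median scaling. Replicate numbers did not pair the arrays (correlations of -0.025 to 0.054 between clones). With the replicate block, D6 minus E1 gave 3837 calls, and E3 minus E6 3675. Counting arrays as replicates of a side together with the block gave 5366 calls in the side contrast, which changes 2 choices at once and treats arrays of 1 clone as independent, so nothing is read from it. The median of the neuroendocrine markers turned to -0.0081 with the mean over probes. The cause of these changes was not tested. Scaling to the 75th percentile was chosen after seeing the data and gave 180 higher and 51 lower genes. Dim probes limit the low genes, since a value near background understates a difference.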

Other observations

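The VCX genes, a family on the X chromosome best known from testis, were higher together in D6 and E1. VCX2, VCX, VCX3A and VCX3B differed by 2.51, 2.27, 2.25 and 2.21 log2 units and stood within 10 neighbouring measured genes in RefSeq order. They are near-identical paralogs, so their probes may share signal and the members are uncertain. The keratin genes KRT34, KRT13 and KRT15 likewise stood within 10 neighbouring measured genes of chromosome 17. By chromosome, the share of genes at least 2-fold higher was 0 to 2.48% (297 genes on chromosome 22 and 121 on chromosome 21).

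Several genes outside the lists, named after their values were seen, also parted the sides. MFGE8, a bridging protein for the uptake of dying cells, ANG, a secreted ribonuclease, and GPC4, a cell surface glypican, were higher in D6 and E1 by 2.18, 2.43 and 2.08. DEPP1, KLF9 and TXNIP, which are known to respond to FOXO factors, glucocorticoids and glucose in that order, were higher by 1.06 to 2.18. On the lower side, RNA5S9, a 5S ribosomal RNA, had the greatest mean difference (-1.90), and PSCA, a surface antigen of epithelia, differed by -1.21.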
